A study of Mus musculus with 18 samples.

Results

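The ATF4 integrated stress response genes described here are 10 genes: the transcription factors Atf4, Atf3, Atf5 and Ddit3, and the ATF4 targets Asns, Trib3, Chac1, Sesn2, Psat1 and Phgdh. They were chosen by name from the 23352 gene symbols of the deposited tables, by their known roles and not by a threshold on a measured value. Earlier results of these data were known when they were chosen. All 10 were found in every table. 7 of them had a mean level of at least 1 FPKM (fragments per kilobase of exon, scaled to the mapped reads of a library) and were among the 10835 genes tested between genotypes. Asns, Psat1 and Phgdh lay under that level and were tested in a second fit that took in the 14016 genes averaging 0.1 FPKM or more.

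The integrated stress response starts when one of the eIF2α kinases (PERK, sensing misfolded protein in the endoplasmic reticulum, GCN2, sensing uncharged tRNA, PKR or HRI) phosphorylates the translation factor eIF2α. General translation then slows while the Atf4 mRNA, which carries upstream open reading frames, is translated more, so that ATF4 activity can change with little change in its mRNA. ATF4 binds composite C/EBP-ATF elements and turns on genes of amino acid synthesis and uptake, redox balance and, with CHOP (the product of Ddit3), cell death; mTORC1 also raises ATF4 output through translation and mRNA stability.

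Livers came from 9 wild-type (WT) and 9 Gpr180KO male C57BL/6J mice, aged 20 weeks and fed a high-fat diet (HFD). Gpr180KO mice were homozygous for a CRISPR/Cas9 deletion of an exon of Gpr180, which encodes a transmembrane protein named as an orphan G protein-coupled receptor, and were bred with their wild-type controls from heterozygous founders. The deletion is present in the whole body, so the liver is not the only organ without GPR180. In these poly(A) RNA libraries of whole liver, fewer cells of a type and less RNA per cell cannot be told apart. The labels do not say in so many words that each library is a separate mouse, so the p-values measure the spread between these libraries.

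Gpr180 had 6.79 ± 1.99 FPKM (SD, n = 9) in WT and 1.60 ± 0.371 FPKM (SD, n = 9) in Gpr180KO livers, with no overlap between groups. Library titles came in 2 forms, with 4 livers per genotype in the first (title style 1, such as W317HFD) and 5 per genotype in the second (title style 2, such as WThfd131). What the forms stand for is not stated, so the differences of the members and of the pathway genes called are also given within them. Sequencing depth relative to the deepest library was between 61.1% and 100% in WT and between 44.4% and 94.0% in Gpr180KO livers. One Gpr180KO library, KOhfd51, stood apart with an FPKM sum of 718624, where the other 17 lay between 503229 and 555800. Across all genes tested, the median difference was -0.13 on the log2(FPKM + 0.1) scale as deposited and 0.02 after median-of-ratios scaling. With the deposited FPKM, 464 genes were called lower and 49 higher, and after that scaling 147 lower and 146 higher. Hepatocyte markers were abundant in every library, with a summed level of 19848 to 24816 FPKM in WT and 22586 to 35955 FPKM in Gpr180KO livers.

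None of the 7 members tested in the main fit was called between genotypes at an adjusted p of 0.05 (limma), and 1 of 7, Atf3, had an unadjusted p under 0.05. Among all 10835 genes tested, 2403 had an unadjusted p under 0.05 (limma), 4.28% were called lower and 0.452% higher in Gpr180KO livers. 5 of the 7 members had a negative difference, and their median of -0.15 on the log2(FPKM + 0.1) scale lay beside the median of all genes given above. After median-of-ratios scaling 3 of the 7 were negative, with a median of 0.0016. With the lower filter, 1 of 10 members, Psat1, was called lower and none higher, and 2 of 10 had an unadjusted p under 0.05. In that fit 3352 of all 14016 genes had an unadjusted p under 0.05 (limma), and 5.54% were called lower and 0.435% higher. There 8 of 10 members were negative, with a median of -0.25 where that of all genes was -0.15. After median-of-ratios scaling 6 of 10 were negative, with a median of -0.13 where that of all genes was -0.0034. In no member did every Gpr180KO liver lie below or above every WT liver, a separation that 0.175% of the genes tested showed downwards and 0.0554% upwards.

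**Figure D1:**
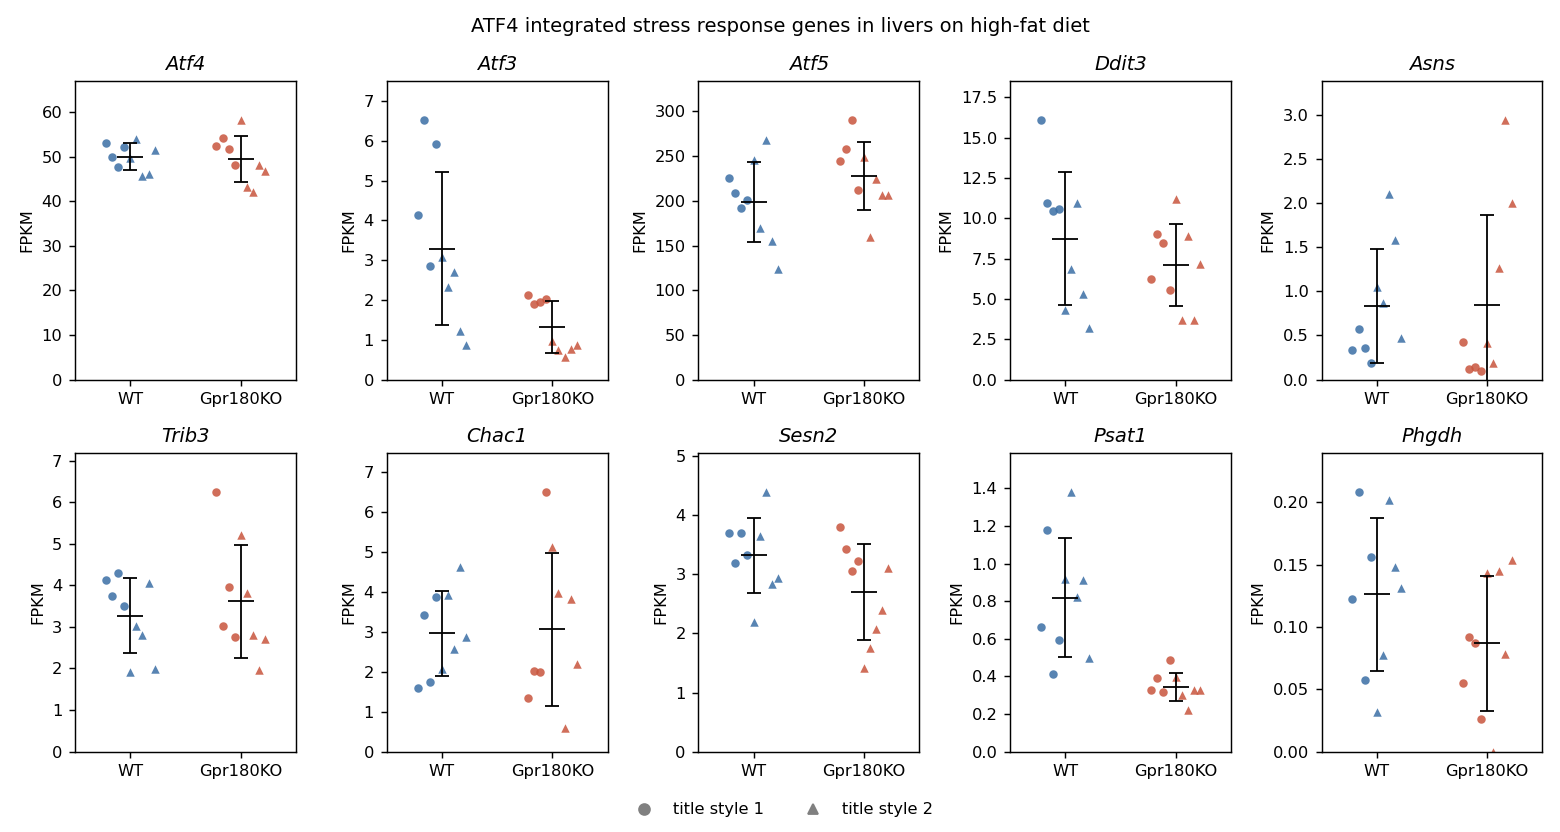
FPKM of the 10 members in each liver (linear axes, each starting at 0), with WT in blue, Gpr180KO in red, circles for title style 1 and triangles for title style 2; horizontal marks and bars are mean ± SD over 9 livers. Psat1 sits at 0.412 to 1.38 in WT and 0.221 to 0.489 in Gpr180KO livers, while the levels of Atf4 in both genotypes lie over each other.

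Levels per length of transcript differed widely between members. Atf5, a bZIP factor that is itself a target of ATF4 and is abundant in hepatocytes, had the highest mean of 213 FPKM over the 18 livers, above 98.3% of all symbols. Atf4 followed at 49.7 FPKM, and neither its range nor that of Atf5 met that of another member. Ddit3 came next at 7.92 FPKM, and Trib3 (3.44 FPKM), Chac1 (3.01 FPKM), Sesn2 (3.01 FPKM) and Atf3 (2.31 FPKM) overlapped one another and the lower part of the Ddit3 range. Asns (0.841 FPKM) and Psat1 (0.582 FPKM) overlapped each other, and Phgdh was lowest at 0.106 FPKM, with its highest liver under the lowest Psat1 value.

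Atf4, which encodes the effector of the response, was the steadiest member. Its level in WT livers had a lowest value of 45.7, a median of 49.9 and a highest value of 54.0 FPKM, and in Gpr180KO livers 42.1, 48.2 and 58.2 FPKM. The genotypes overlapped across most of their range, and KOhfd51 was the highest of all 18 livers. The difference was -0.02 (95% interval -0.17 to 0.12, limma adjusted p = 0.870), on a log2 scale with 0.1 added, as are all differences below. It was 0.024 in title style 1 and -0.06 in title style 2. After median-of-ratios scaling it was 0.13, so the sign of this small difference depended on the scaling. ATF4 protein and eIF2α phosphorylation were not measured in these data.

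Atf3 encodes a stress-induced bZIP factor that acts downstream of ATF4 and is also an immediate early gene. WT livers had a lowest value of 0.863, a median of 2.85 and a highest value of 6.52 FPKM, and Gpr180KO livers 0.574, 0.980 and 2.13 FPKM. All 9 Gpr180KO livers lay below the WT mean, but 2 WT livers, WThfd156 and WThfd157, lay within the Gpr180KO range. The mean of Gpr180KO livers was 40.3% of WT, a difference of -1.16 (SE 0.35, 95% interval -1.89 to -0.43, limma adjusted p = 0.0599), which missed the threshold.

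The spread of Atf3 within a genotype largely followed the title style. In title style 1 the WT livers had 2.85 to 6.52 FPKM and the Gpr180KO livers 1.90 to 2.13 FPKM, with no overlap. In title style 2 they had 0.863 to 3.08 FPKM and 0.574 to 0.980 FPKM, and the groups overlapped. The genotype difference was nearly the same in both, at -1.17 (adjusted p = 0.0342, limma) and -1.15 (adjusted p = 0.130, limma), and the interaction of genotype and title style was 0.02 (SE 0.43). With title style as a block the same difference passed the threshold (limma adjusted p = 0.00471), and it also did so after median-of-ratios scaling with that block (-1.02, adjusted p = 0.0106), but not after that scaling alone (adjusted p = 0.0975). Leaving out 1 library at a time gave adjusted p between 0.0149 and 0.120. The call was made without WThfd157 (0.0149), without WThfd156 (0.0476) or without KO319HFD (0.0474), and without KOhfd51 the adjusted p was 0.0725.

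Fos and Jun, immediate early genes whose products pair with ATF family members, were called lower, and the other 9 of 11 immediate early genes tested were not called. The list did not move as a whole: 7 of the 11 had a negative difference, and differences ran from -1.12 to 1.65. Its summed level had a median of 102 FPKM in WT and 104 FPKM in Gpr180KO livers. Fos had 1.69 ± 0.926 FPKM in WT and 0.704 ± 0.188 FPKM in Gpr180KO livers (SD, n = 9), a difference of -1.02 (limma adjusted p = 0.0393). Jun had 9.39 ± 2.54 FPKM and 5.85 ± 2.35 FPKM (SD, n = 9), a difference of -0.71 (limma adjusted p = 0.0458). Both missed the threshold after median-of-ratios scaling (adjusted p = 0.0735 and 0.113), and Jun also without KOhfd51 (0.0568). In title styles 1 and 2 alone, Fos had differences of -1.44 and -0.68 and Jun of -0.57 and -0.83. Markers of stellate cells and fibroblasts moved with genotype as well: 7 of 12 were called lower, and their sum lay between 154 and 321 FPKM in WT and between 95.7 and 157 FPKM in Gpr180KO livers. Of the macrophage markers, 4 of 11 tested were called lower (Cd68, Gpnmb, Trem2 and Ccr2), with a sum of 185 to 490 FPKM in WT and 220.2 to 316.5 FPKM in Gpr180KO livers. No defining marker of either list was at 0 in all libraries, and the part of these cells in the Atf3 difference was not tested.

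Atf5 was the member with the most positive difference. WT livers had a lowest value of 123, a median of 201 and a highest value of 268 FPKM, and Gpr180KO livers 160.1, 224 and 290.4 FPKM. The groups overlapped widely, and only 1 Gpr180KO liver lay below the WT mean. The difference was 0.21 (95% interval -0.07 to 0.50, limma adjusted p = 0.354), with 0.27 in title style 1 and 0.17 in title style 2. Median-of-ratios scaling raised it to 0.37 (limma unadjusted p = 0.00949, adjusted p = 0.121, or 0.0937 with title style as a block), and it missed the threshold there too. Exons of Nup62 and Il4i1 on the opposite strand overlap those of Atf5 in the GENCODE annotation, and with reads counted without a stated strand, fragments of these genes cannot be told apart there.

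Ddit3, which encodes CHOP, a factor tied to cell death under lasting stress, had a lowest value of 3.19, a median of 10.4 and a highest value of 16.1 FPKM in WT and 3.70, 7.19 and 11.2 FPKM in Gpr180KO livers. The groups overlapped and the difference was -0.22 (95% interval -0.82 to 0.37, limma adjusted p = 0.657). The title styles pointed opposite ways. In title style 1 WT livers had 10.4 to 16.1 FPKM and Gpr180KO livers 5.56 to 9.03 FPKM, without overlap, while in title style 2 the ranges were 3.19 to 11.0 FPKM and 3.70 to 11.2 FPKM. As for Atf3, how many of all genes separate so within title style 1 was not counted. The interaction of 0.88 (SE 0.49) did not pass (limma adjusted p = 0.697), so this contrast between title styles was not shown. Ddit3 exons overlap those of Mars and Gm4189 on the opposite strand.

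Psat1 encodes phosphoserine aminotransferase, the middle enzyme of serine synthesis from a glycolytic intermediate, and was the only member called between genotypes in the fit with the lower filter. Its lowest, median and highest WT values were 0.412, 0.820 and 1.38 FPKM, and those of Gpr180KO livers were 0.221, 0.328 and 0.489 FPKM. 8 of 9 Gpr180KO livers lay below every WT liver and 8 of 9 WT livers above every Gpr180KO liver. How many genes of a similar level come as near to separation was not counted. Psat1 fell to 42.0% of the WT mean, a difference of -0.99 (SE 0.19, 95% interval -1.38 to -0.60, limma adjusted p = 0.00953). An exact, two-sided permutation test of the same values, run on the 3 members under the main filter, gave p = 8.23e-05 for Psat1, 0.496 for Asns and 0.186 for Phgdh.

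The Psat1 call was kept in 26 of 28 alternatives. It held after median-of-ratios scaling (-0.86, limma adjusted p = 0.0200), with title style as a block (adjusted p = 0.00504), without KOhfd51 (adjusted p = 0.0106) and without each other library in turn, where adjusted p lay between 0.00294 and 0.0235. The alternatives without a call were title style 1 alone (-0.69, adjusted p = 0.157, limma) and title style 2 alone (-1.23, adjusted p = 0.0929, limma). Psat1 is lowly expressed in these livers, and it shares no stretch of 75 bases with a transcript of another gene. The 7 stellate cell and 4 macrophage markers called above were lower in Gpr180KO livers too, while the other 7 macrophage markers tested were not called. Of the 11 macrophage markers tested, 10 had a negative difference as deposited (median -0.29) and 8 after median-of-ratios scaling. The Kupffer cell marker Clec4f (0.16) was the only positive one as deposited. Of the few cholangiocyte markers that could be tested 2 of 3 were called lower (Spp1 and Sox9). Their part in the Psat1 difference was not tested. Of the lymphocyte markers 1 of 2 tested was called lower (Themis) and of the hepatocyte markers 1 of 12 higher (Serpina1c). None of 9 endothelial markers, 10 fasting genes and 10 clock genes was called by limma with the FPKM as deposited, and 0, 3 and 2 of them had an unadjusted p under 0.05. Of the fasting genes, Pck1, for the rate-limiting enzyme of gluconeogenesis, was called higher after median-of-ratios scaling (0.86, adjusted p = 0.0471), with title style as a block (adjusted p = 0.0268) and without KOhfd51 (adjusted p = 0.0419), and Pdk4 was called lower with the block (adjusted p = 0.0123). Both were picked for mention after their values were seen.

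Phgdh, the enzyme that starts serine synthesis, could hardly be measured. WT livers had a lowest value of 0.0318, a median of 0.131 and a highest value of 0.208 FPKM, and Gpr180KO livers had a median of 0.0870 and a highest value of 0.154 FPKM, with 1 liver listed at 0. The groups overlapped, and the difference was -0.28 (95% interval -0.74 to 0.17, limma adjusted p = 0.432), with -0.49 in title style 1 and -0.12 in title style 2. Of its 75-base stretches, 35.8% also occur in transcripts of 13 other gene models, so its reads may be split with near-identical copies.

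Asns encodes asparagine synthetase, the classical amino acid response target, and varied more between livers than between genotypes. WT livers had a lowest value of 0.189, a median of 0.576 and a highest value of 2.11 FPKM, and Gpr180KO livers 0.101, 0.417 and 2.94 FPKM. The highest and the lowest liver were both Gpr180KO, and the difference was -0.40 with a wide interval of -1.52 to 0.71 (limma adjusted p = 0.658). Within title styles 1 and 2 it was -0.70 and -0.17. Levels were higher on average in title style 2, with overlap: the 8 livers of title style 1 had 0.101 to 0.576 FPKM and the 10 of title style 2 had 0.190 to 2.94 FPKM.

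Tested across 14016 genes in the fit with both terms, title style 2 against title style 1 gave 1 member higher, Asns (1.68, SE 0.40, limma adjusted p = 0.00682), and 1 lower, Atf3 (-1.27, SE 0.21, limma adjusted p = 0.000673). Of all genes, 3.1% were called higher and 16.2% lower in title style 2, so a call between title styles was common. Atf3 and Asns thus differed in opposite directions between the title styles, while the difference for Psat1 was 0.06 (adjusted p = 0.866, limma) and that for Atf4 -0.08 (adjusted p = 0.404, limma). In that fit the genotype term called 2 of 10 members lower, Atf3 and Psat1, where 11.1% of all genes were called lower and 0.949% higher.

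**Figure D2:**
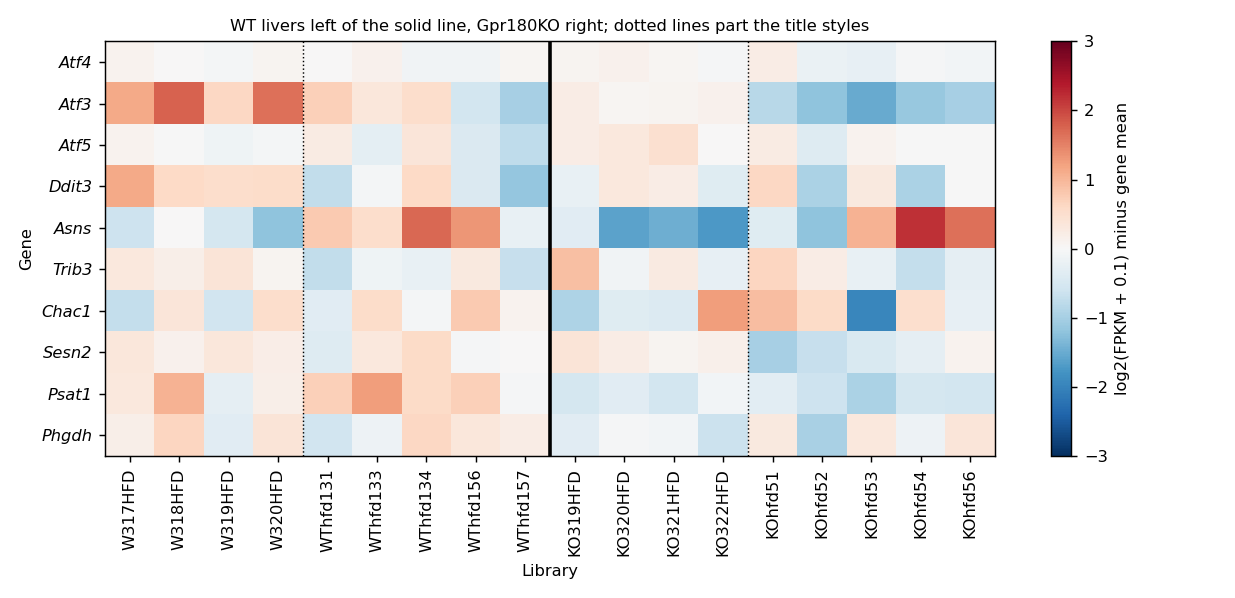
Heat map of the members (vertical axis) in the 18 libraries (horizontal axis), coloured by log2(FPKM + 0.1) minus the gene's mean over all libraries; WT libraries are left of the solid line and dotted lines part the title styles. Psat1 is mostly red in WT and blue in Gpr180KO libraries, Asns is blue in most libraries of title style 1, and Atf4 is nearly white throughout.

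Trib3, which encodes a pseudokinase that feeds back on ATF4 and CHOP and dampens AKT, had a lowest value of 1.92, a median of 3.50 and a highest value of 4.29 FPKM in WT and 1.97, 3.02 and 6.24 FPKM in Gpr180KO livers. The groups overlapped, and the 2 highest livers, KO319HFD and KOhfd51, were Gpr180KO. The difference was 0.11 (95% interval -0.32 to 0.54, limma adjusted p = 0.764), with -0.039 in title style 1 and 0.23 in title style 2, and 0.26 after median-of-ratios scaling (adjusted p = 0.542). Chac1 encodes an enzyme that degrades glutathione. It had a lowest value of 1.59, a median of 2.88 and a highest value of 4.62 FPKM in WT and 0.602, 2.20 and 6.49 FPKM in Gpr180KO livers, so that the Gpr180KO values lay on both sides of the WT range. Its difference was -0.15 (95% interval -0.87 to 0.57, limma adjusted p = 0.819) and 0.0016 after median-of-ratios scaling. Within title styles 1 and 2 it was -0.0094 and -0.25.

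Sesn2 encodes sestrin 2, a leucine sensor that restrains mTORC1. Levels in WT livers had a lowest value of 2.19, a median of 3.33 and a highest value of 4.39 FPKM, and in Gpr180KO livers 1.42, 3.06 and 3.80 FPKM. The groups overlapped, with 3 Gpr180KO livers, all of title style 2, below every WT liver. The difference was -0.33 (95% interval -0.69 to 0.03, limma adjusted p = 0.269), and -0.18 after median-of-ratios scaling (adjusted p = 0.553). The means were 3.20 FPKM in WT and 2.15 FPKM in Gpr180KO livers of title style 2 and 3.48 and 3.38 FPKM in title style 1, but the interaction of -0.52 (SE 0.28) did not pass (limma adjusted p = 0.690).

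**Figure D3:**
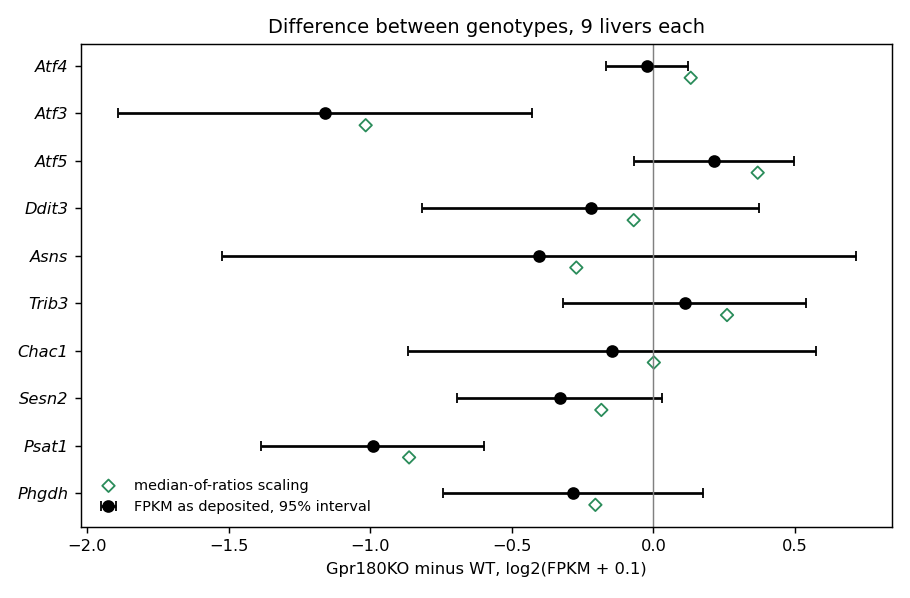
Difference between Gpr180KO and WT livers for each member (horizontal axis, log2 of FPKM + 0.1), with black points and 95% intervals for the FPKM as deposited and green diamonds for median-of-ratios scaling. The intervals of Atf3 (-1.89 to -0.43) and Psat1 (-1.38 to -0.60) do not reach 0, and those of the other 8 members do.

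Promoters are shown for the 3 members that differed between genotypes or title styles, Atf3, Asns and Psat1, to set the ATF4 motif beside these results. The core of the C/EBP-ATF response element was searched as TGATGNAA on both strands, in windows of 250 bases before to 50 after the start site (RefSeq, GRCm38.p6). 4 of the 10 members had a match, Atf3, Asns, Trib3 and Chac1, and 3.97% of all 32851 promoter windows had one. Sequences run 5′ to 3′ on the strand of the gene, with the match in capitals. The window of Atf3 is chr1:191183284-191183583, that of Asns chr6:7693160-7693459 and that of Psat1 chr19:15925010-15925309, all on the minus strand.
Atf3: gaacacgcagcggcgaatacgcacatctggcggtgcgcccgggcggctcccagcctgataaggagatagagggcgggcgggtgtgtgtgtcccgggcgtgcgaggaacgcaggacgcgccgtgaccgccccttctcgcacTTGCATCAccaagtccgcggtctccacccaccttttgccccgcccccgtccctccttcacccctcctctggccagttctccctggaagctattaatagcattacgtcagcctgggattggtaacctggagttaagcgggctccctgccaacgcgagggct
Asns: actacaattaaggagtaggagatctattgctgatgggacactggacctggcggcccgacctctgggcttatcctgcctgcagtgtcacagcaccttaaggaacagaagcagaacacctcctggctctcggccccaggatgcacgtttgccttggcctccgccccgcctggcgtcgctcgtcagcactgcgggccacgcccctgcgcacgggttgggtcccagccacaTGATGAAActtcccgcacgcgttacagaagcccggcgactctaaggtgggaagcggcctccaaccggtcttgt
Psat1: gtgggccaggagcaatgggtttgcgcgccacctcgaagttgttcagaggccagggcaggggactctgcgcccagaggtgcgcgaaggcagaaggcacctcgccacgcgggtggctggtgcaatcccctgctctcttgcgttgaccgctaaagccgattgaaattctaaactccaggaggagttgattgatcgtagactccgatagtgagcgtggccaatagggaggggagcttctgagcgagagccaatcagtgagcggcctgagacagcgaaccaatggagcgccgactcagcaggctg
The match in Atf3 begins 110 bases before the start site and reads TTGCATCA on the gene's strand, the reverse complement of the motif with C at the free position. The match in Asns begins 23 bases before it, as TGATGAAA. Psat1 has no match in this window, which says only that these letters are not in it. Trib3 and Chac1, whose windows also hold a match, were not called between genotypes.

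A parallel course of Atf4 and the other tested members across livers was not shown. Values were first taken as deviations from the mean of their genotype. Over all 18 livers, Atf3 then had Pearson's r = 0.41 with Atf4 (permutation p = 0.0954, adjusted 0.430 over 6 relations). Spearman's rho was 0.46 (permutation p = 0.0563, adjusted 0.320). Without KOhfd53 and KOhfd51, the livers farthest from the median of Atf4, r was 0.44. Taken as deviations from the means of genotype and title style, r for Atf3 was 0.23 (permutation p = 0.355). By deviations from the genotype mean alone, the other 5 relations had r between 0.07 and 0.28. No adjusted permutation p for r was under 0.430 there. Several of these values rested on KOhfd53 and KOhfd51: without them r went from 0.22 to -0.36 for Chac1, from 0.07 to 0.41 for Sesn2 and from 0.28 to 0.084 for Trib3. They also depended on the scaling. After median-of-ratios scaling r was -0.04 for Atf3 and -0.37 for Sesn2, and between 0.15 and 0.35 for the others. The lowest adjusted permutation p for r was then 0.472. The genes outside the set most like Atf4 or Asns over the 18 livers were picked as the highest of 10828, without a test. High values are therefore expected among them. By deviations from the means of genotype and title style, those for Atf4 were Eif3d, a translation initiation subunit (Spearman's rho 0.83), Ube2e2 (0.82), Ddrgk1 (0.80), Tm2d2 (0.80) and Adh1 (0.79). For Asns they were Nemf (0.85), Hnrnpm (0.84), Cpb2 (0.83), Mccc1 (0.83) and Il17rb (0.83).

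Upstream of ATF4, the 14 genes for the eIF2 kinases and their partners, an eIF2 subunit, eIF2B and the eIF2α phosphatase subunits were all tested, and 1 was lower and none higher. That gene was Eif2ak3, which encodes PERK. Its lowest, median and highest WT values were 4.21, 6.66 and 8.44 FPKM, and those of Gpr180KO livers were 2.28, 3.66 and 5.33 FPKM, so that the groups overlapped in part. Eif2ak3 fell to 60.4% of WT (-0.72, SE 0.16, limma adjusted p = 0.0215), also after median-of-ratios scaling (adjusted p = 0.0289) and without KOhfd51 (adjusted p = 0.0234). The most abundant of these genes, Eif2ak1 (the HRI kinase) at 21.0 ± 1.43 and 20.5 ± 1.74 FPKM and Ppp1r15b (a phosphatase subunit) at 16.4 ± 1.58 and 15.3 ± 2.76 FPKM in WT and Gpr180KO livers (SD, n = 9), were not called.

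Of 17 other ATF4 targets in amino acid synthesis and transport 8 were tested, and 1 was lower. The rest averaged under 1 FPKM and were not in that fit. Their Gpr180KO means were all below WT, from 42.5% of WT for Mthfd1l, 45.8% for Aldh1l2 and 49.4% for Slc1a5 to 88.2% for Slc7a5. The ranges of the genotypes overlapped in each, and no test of these low genes is given here. These means are of FPKM as deposited. Among all 14016 genes averaging 0.1 FPKM or more, the median difference was -0.15 as deposited and -0.0034 after median-of-ratios scaling. Gpt2, a mitochondrial alanine aminotransferase, had a lowest value of 137, a median of 169 and a highest value of 198 FPKM in WT and 105, 125 and 154 FPKM in Gpr180KO livers, with some overlap. It fell to 74.5% of WT (-0.43, limma adjusted p = 0.0169), but missed the threshold after median-of-ratios scaling (adjusted p = 0.0555). Cth, the cystathionine lyase of cysteine synthesis, had the most positive difference (0.37, limma adjusted p = 0.197), at 155 ± 24.2 FPKM in WT and 209 ± 75.5 FPKM in Gpr180KO livers (SD, n = 9). None of the 13 tRNA synthetase and export genes was called by limma, and 1, Xpot (a tRNA exportin), had an unadjusted p under 0.05. 11 of the 13 had a negative difference as deposited, from -0.29 for Xpot upwards, and 4 after median-of-ratios scaling. The most abundant were Tars (69.8 ± 9.68 and 70.7 ± 4.17 FPKM) and Aars (46.6 ± 3.33 and 46.1 ± 6.59 FPKM; SD, n = 9). With title style as a block Wars was called lower (-0.25, limma adjusted p = 0.0479).

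Of 12 further regulators and secreted products 10 were tested and 2 were called lower. All 10 differences were negative as deposited, and 6 of 10 after median-of-ratios scaling. Gdf15, a secreted stress hormone that acts on food intake, had a lowest value of 4.03, a median of 8.66 and a highest value of 15.5 FPKM in WT and 1.87, 3.17 and 9.01 FPKM in Gpr180KO livers. It fell to 42.9% of WT (-1.21, limma adjusted p = 0.0302). Ddit4, which encodes the mTORC1 inhibitor REDD1, had 2.84, 4.40 and 8.31 FPKM as lowest, median and highest values in WT and 1.25, 2.91 and 3.26 FPKM in Gpr180KO livers (-0.77, limma adjusted p = 0.0366). The groups overlapped for both genes, and neither passed after median-of-ratios scaling (adjusted p = 0.0512 and 0.0975). The most abundant genes of this list, Sqstm1 (223 ± 42.3 and 217 ± 26.1 FPKM) and Map1lc3b (63.1 ± 4.16 and 62.9 ± 6.71 FPKM), both for autophagy, were not called (SD, n = 9).

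The ATF6 and XBP1 arms of the unfolded protein response had 18 genes tested, of which 1 was lower and none higher. Dnajb9, a chaperone partner of BiP, had a lowest value of 27.9, a median of 42.6 and a highest value of 60.8 FPKM in WT and 12.5, 27.4 and 38.8 FPKM in Gpr180KO livers, a difference of -0.78 (limma adjusted p = 0.0311). It missed the threshold after median-of-ratios scaling (adjusted p = 0.0740). Hspa5, which encodes BiP, had 432 ± 126 and 374 ± 109 FPKM and Calr had 406 ± 41.1 and 399 ± 58.9 FPKM (SD, n = 9), and neither was called. In all, 5 genes of these pathway lists, with 14, 8, 13, 10 and 18 genes tested, were called lower with the FPKM as deposited. Among all genes tested, 4.28% were called lower in that fit. After median-of-ratios scaling 2 genes of these lists were called, where 147 were lower and 146 higher among all 10835 genes tested. They were Eif2ak3, lower, and Eif2b5, a subunit of the exchange factor eIF2B, higher (0.34, limma adjusted p = 0.0334). Eif2b5 was picked for mention after its value was seen. Within title styles 1 and 2 the differences were -0.71 and -0.73 for Eif2ak3, -0.36 and -0.48 for Gpt2, and -1.20 and -1.22 for Gdf15. They were -0.82 and -0.73 for Ddit4 and -0.94 and -0.65 for Dnajb9, so that all 5 were negative in both. Title style 1 alone called 2 of the 5, Eif2ak3 and Ddit4, and in title style 2 alone their adjusted p lay between 0.101 and 0.266 (limma).

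**Figure D4:**
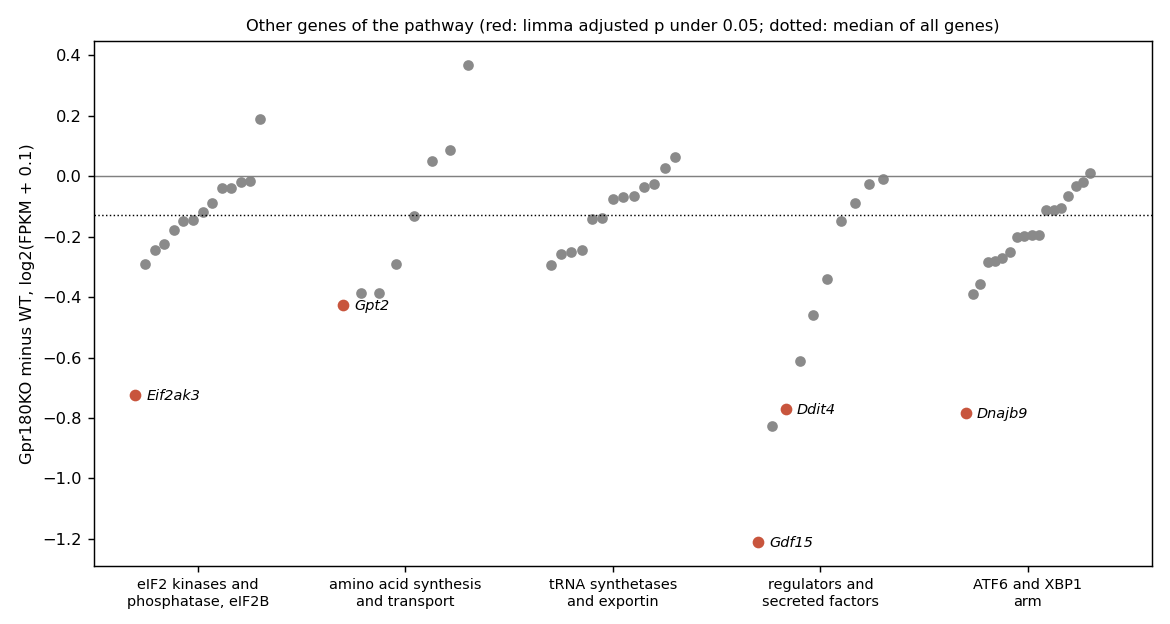
Difference between Gpr180KO and WT livers (vertical axis, log2 of FPKM + 0.1) for each tested gene of the 5 pathway lists, sorted within a list; red points passed limma's adjusted p of 0.05, and the dotted line is the median of all genes tested (-0.13). Eif2ak3, Gpt2, Gdf15, Ddit4 and Dnajb9 are the red points, all below 0.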

How the data were processed

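Poly(A) RNA of 18 livers was sequenced by the authors from TruSeq libraries. The authors ran Illumina's TopHat Alignment application against GRCm38 (mm10) and deposited its FPKM output, 1 table per library. Its version, annotation and strand setting are not given in the sources used here.

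Rows sharing a symbol were summed, and 24 genes with a failed estimate were dropped, none of them members. Genotypes were taken from the labels. Values were analysed as log2(FPKM + 0.1) with limma 3.58.1 (trended variance, R 4.3.3), without covariates and with Benjamini-Hochberg adjustment over all 10835 genes averaging 1 FPKM or more, or 14016 averaging 0.1 or more. A log2 difference of this kind understates changes of lowly expressed genes. Read counts are not held in FPKM, so relative depth was estimated from the values of low genes. Single values were tested by exact permutation and correlations by 100000 permutations, and scripts were tested on simulated data.

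The named genes were the 10 members, Gpr180, the genes of each other list with adjusted p under 0.05 (at most 6), the 2 most abundant of each pathway list, and the 5 genes most like Atf4 and Asns. Members and lists were chosen with earlier results of these data known. Alternatives were other filters, pseudocounts, scalings, title style as a block or alone, and each library left out.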

Additional observations from a re-analysis of the deposited data

How the results depend on the processing

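The count of genes called between genotypes, 513 in all, was 837 among genes averaging 0.1 FPKM or more, 238 among those averaging 5 or more, 293 after median-of-ratios scaling, 282 after 75th percentile scaling, 1153 with title style as a block and 0 in title style 2 alone (limma), where 2019 genes had an unadjusted p under 0.05. Leaving out 1 library gave 132 (without WThfd133) to 922 (without WThfd157). The number of members called lower went from 0 to 1 with the filter at 0.1 FPKM or none (Psat1), and with TPM scaling, title style as a block, title style 1 alone, or median-of-ratios scaling with that block (Atf3), and was 0 to 1 over the libraries left out. The call of Psat1 was lost in title style 1 alone (-0.69) and title style 2 alone (-1.23). The difference of Atf4 turned positive after median-of-ratios scaling (0.13, with or without the block), 75th percentile scaling (0.10) and in title style 1 alone (0.024), and ran from -0.052 to 0.0069 over the libraries left out. Ddit3 turned positive in title style 2 alone (0.17), Trib3 negative in title style 1 alone (-0.039), and Chac1 positive after median-of-ratios scaling (0.0016, with or without the block), with -0.31 to 0.091 over the libraries left out. Pathway genes called went from 5 to 2 after median-of-ratios scaling, 2 in title style 1 alone and 0 in title style 2 alone. The causes were not tested. The alternative with both scaling and block, those for members under the main filter and those for pathway genes were chosen after seeing the data. No paired analysis was possible because the labels do not pair the mice of the genotypes. Depth limits Phgdh, Asns and Psat1 most, whose levels lie under 1 FPKM on average.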
